A study of Drosophila melanogaster with 16 samples.

Results

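The channel genes para, na, cac, Ca-alpha1D, Ih and cngl of Drosophila melanogaster are described here across 7 neuron types of the developing visual system. They were chosen by symbol: the deposited expression table carries exactly these names, and they make up 6 of its 15682 genes. All 6 passed the filter on low values, an RPKM (a read count scaled to gene length and library size) of at least 1 in at least 2 libraries, which 9346 genes passed.

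The libraries were made from total RNA of sorted cells of the inner photoreceptors R7 and R8 and of the lamina neurons L1, L2, L3, L4 and L5, all labelled wild type and from the optical lobe. L3 has 4 libraries and each of the other types has 2, which gives 16 in all. Pupal tissue was dissociated with papain and Liberase and the cells were sorted by flow cytometry, but the marker that defined each gate is not given in the sources used here. The age field of the labels reads 65 hours after pupal formation for R7, 96 for R8, 24 for L1, 35 for L2, 40 for L3, 45 for L4 and 53 for L5, whereas the dissection protocol gives 40 hours for every library. The column headings of the lamina libraries also carry the number 40, and those of R7 and R8 carry no such number. If the age field holds, cell type and age cannot be told apart in any comparison below. Nothing states whether the libraries of a type came from separate dissections, and each p-value therefore rests on a spread between libraries that may be technical.

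The 6 genes encode the pore-forming subunits of channels that let cations into neurons. para encodes the voltage-gated sodium channel that carries action potentials, and na encodes narrow abdomen, the fly member of the NALCN family, which passes a sodium leak near rest. cac encodes cacophony, the calcium channel of presynaptic active zones, and Ca-alpha1D encodes an L-type voltage-gated calcium channel. Ih encodes the hyperpolarisation-activated channel of the HCN family, which opens when the membrane becomes more negative and is tuned by cyclic nucleotides. cngl encodes a protein related to the cyclic nucleotide-gated channels. Adult fly photoreceptors and several lamina neurons signal with graded voltage changes.

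The labelled types were checked against marker genes. The 10 photoreceptor markers summed to between 2027 and 2745 RPKM in R libraries and to between 6.76 and 117 RPKM in L libraries, where the highest sums were those of L3. The 8 lamina markers summed to between 5.43 and 10.3 RPKM in R libraries and to between 258 and 1289 RPKM in L libraries. The 5 pan-neuronal markers summed to between 265 and 316 RPKM in R libraries and to between 578 and 1468 RPKM in L libraries, a split carried mainly by fne, which gave 12.7 to 19.0 RPKM in R libraries and 238 to 969 RPKM in L libraries. The glial gene repo did not pass 1.18 RPKM in any library, although the Na,K-ATPase subunit nrv2, which is also on the glial list, lay between 17 and 21.2 RPKM in R libraries and between 0.624 and 2.77 RPKM in L libraries. Of 5 blood cell markers, Pxn reached 278 RPKM in an L library and at most 0.517 RPKM in R libraries, while Hml, srp, He and NimC1 each stayed under 1 RPKM in every library. The part of other cells in the results was not tested. Depth, estimated from the spacing of low values, ran from 47010000 to 153120000 reads per library.

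Across the 7 types the 6 genes spread widely over the range of transcript levels. cac was high in every type, na was low in every type, para was at an intermediate to high level throughout, and Ca-alpha1D, Ih and cngl were low in both photoreceptor types and much higher in all or most lamina types. The ranks among the 9346 tested genes show the spread: cac lay at or above percentile 83.4 in every type, and na lay between percentile 28.2 and percentile 42.9. cngl lay at percentile 16.2 in R8 and 97.6 in L3, and Ih lay at percentile 27.9 in R8 and 96.1 in L5. All 6 genes differed among the 7 types in limma's F test on log2(RPKM + 1) at a Benjamini-Hochberg adjusted p under 0.05, as did 70.9% of all genes tested. The call of na, with an adjusted p of 0.0212, was lost without L1 replicate 2 (adjusted p = 0.0519), without R8 replicate 1 (adjusted p = 0.086) and without R8 replicate 2 (adjusted p = 0.0572).

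**Figure D1:**
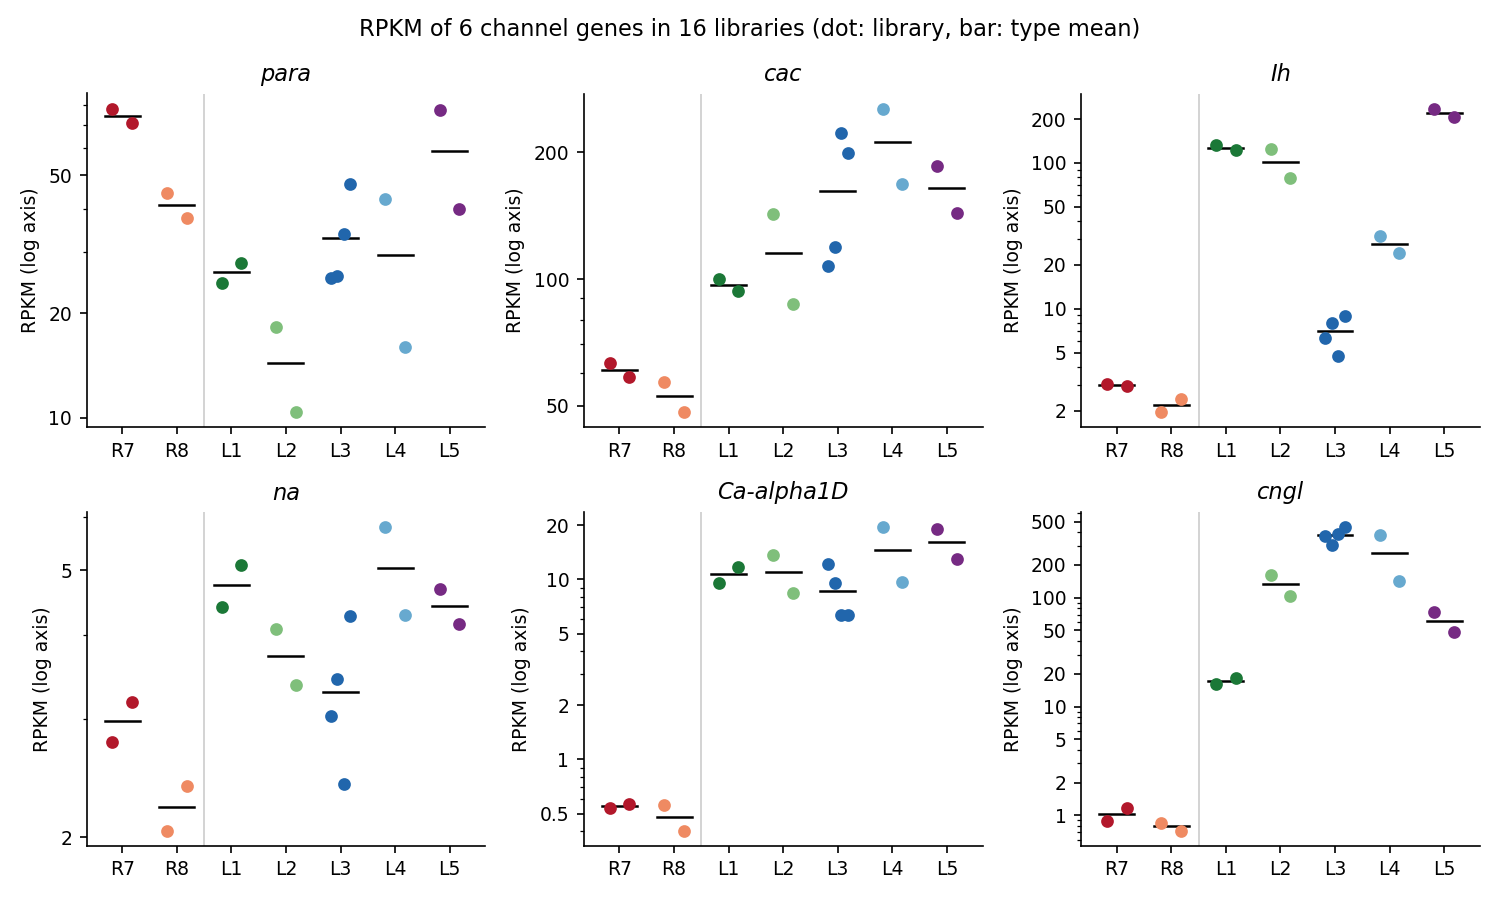
RPKM of each gene (log axis) by cell type, with R7 and R8 left of the grey line and L1 to L5 right of it; each dot is 1 library and each bar the mean of a type. The 4 R libraries lie below all 12 L libraries for cac, Ca-alpha1D, Ih and cngl, while R and L libraries overlap for para and na.

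The first comparison set R, the mean of R7 and R8, against L, the mean of the 5 lamina types, each type counting equally. It follows the study's own division of source cells into photoreceptor and lamina neurons. para rose in R and the other 5 genes fell, so all 6 passed the test, against 61.9% of all genes tested. The background was 31.7% of genes higher in R and 30.2% lower in R. For 4 of the 6 genes the R and L libraries did not overlap, as for 26.5% of all genes tested. Ca-alpha1D and cngl passed the filter only with their lamina libraries, so their part in these counts is not independent of the filter. In sorted bulk RNA, fewer cells of a type and less RNA per cell cannot be told apart.

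para is taken first. In R7 the libraries gave 77.9 and 70.9 RPKM, and in R8 they gave 44.4 and 37.6 RPKM. The lamina libraries gave 24.5 and 28.0 RPKM in L1, 18.3 and 10.4 RPKM in L2, 25.2, 25.7, 33.9 and 47.3 RPKM in L3, 42.8 and 16 RPKM in L4, and 77.4 and 40.0 RPKM in L5. R7 was thus high in both libraries, L2 low in both, and 1 L5 library stood as high as R7. The mean over types was 57.7 RPKM in R and 32.3 RPKM in L. The difference of R minus L was 0.95 ± 0.26 (SE) on the log2(RPKM + 1) scale, with an adjusted p of 0.00595. Where R and L were fitted as 2 pooled classes with no term for cell type, the difference was 0.92 and the adjusted p 0.0563, so the call was lost.

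na, the leak channel, was the least expressed of the 6 genes in every lamina type. Its libraries gave 2.78 and 3.18 RPKM in R7 and 2.05 and 2.39 RPKM in R8. In the lamina they gave 4.40 and 5.09 RPKM in L1, 4.08 and 3.37 RPKM in L2, 3.04, 3.44, 2.40 and 4.27 RPKM in L3, 5.79 and 4.29 RPKM in L4, and 4.69 and 4.16 RPKM in L5. The lowest values lay in R8 and in 1 L3 library, and the R and L libraries overlapped. na fell in R, with a difference of R minus L of -0.53 ± 0.13 (SE) and an adjusted p of 0.00296. The mean over types in R was 61.2% of that in L.

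cac, the presynaptic calcium channel, fell in R but stayed abundant there. R7 libraries had 63.4 and 58.4 RPKM and R8 libraries 57.1 and 48.4 RPKM. Lamina libraries had 99.9 and 93.7 RPKM in L1, 143 and 87.4 RPKM in L2, 107, 119, 223 and 199 RPKM in L3, 254 and 168 RPKM in L4, and 185 and 143 RPKM in L5. Every R library was below every L library. The difference of R minus L was -1.31 ± 0.21 (SE), with an adjusted p of 0.000121, and the mean over types in R was 37.9% of that in L.

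Ca-alpha1D, the L-type channel, was under 1 RPKM, the level of the filter, in every photoreceptor library. It passed the filter through its lamina libraries alone, so its fall in R is not independent of the filter. R7 had 0.536 and 0.563 RPKM and R8 had 0.560 and 0.403 RPKM. Lamina libraries had 9.59 and 11.8 RPKM in L1, 13.7 and 8.45 RPKM in L2, 12.2, 9.55, 6.37 and 6.33 RPKM in L3, 19.5 and 9.67 RPKM in L4, and 19.1 and 13.1 RPKM in L5. No L library came near the R range. The difference of R minus L was -3.06 ± 0.21 (SE), with an adjusted p of 4.6e-08. Because 1 is added to each RPKM, this understates the change of so low a gene: with 0.1 added the difference was -4.25, and the mean over types in R was 4.22% of that in L. In the current annotation 2.37% of the exonic bases of Ca-alpha1D also lie in a non-coding gene on the opposite strand, and whether the counting used strand is not given in the sources used here.

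Ih fell in R against a lamina mean that was itself very uneven. R7 libraries had 3.03 and 2.95 RPKM and R8 libraries 1.96 and 2.38 RPKM. Lamina libraries had 132 and 122 RPKM in L1, 124 and 79.0 RPKM in L2, 6.33, 7.97, 4.76 and 8.91 RPKM in L3, 31.6 and 24.0 RPKM in L4, and 236 and 206 RPKM in L5. The R values lay just below those of L3 and far below those of the other lamina types. The difference of R minus L was -4.02 ± 0.16 (SE), with an adjusted p of 2.28e-10, and the mean over types in R was 2.67% of that in L.

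cngl had the greatest fall of the 6 in R. Like Ca-alpha1D, it passed the filter only with its lamina libraries, so its fall is not independent of the filter. R7 libraries had 0.890 and 1.17 RPKM and R8 libraries 0.861 and 0.727 RPKM. Lamina libraries had 16.2 and 18.2 RPKM in L1, 161 and 105 RPKM in L2, 366, 304, 386 and 445 RPKM in L3, 375 and 144 RPKM in L4, and 74.2 and 48.8 RPKM in L5. L1, the lowest lamina type, was still far above every R library. The difference of R minus L was -5.78 ± 0.22 (SE), with an adjusted p of 1.58e-10, and the mean over types in R was 0.539% of that in L.

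**Figure D2:**
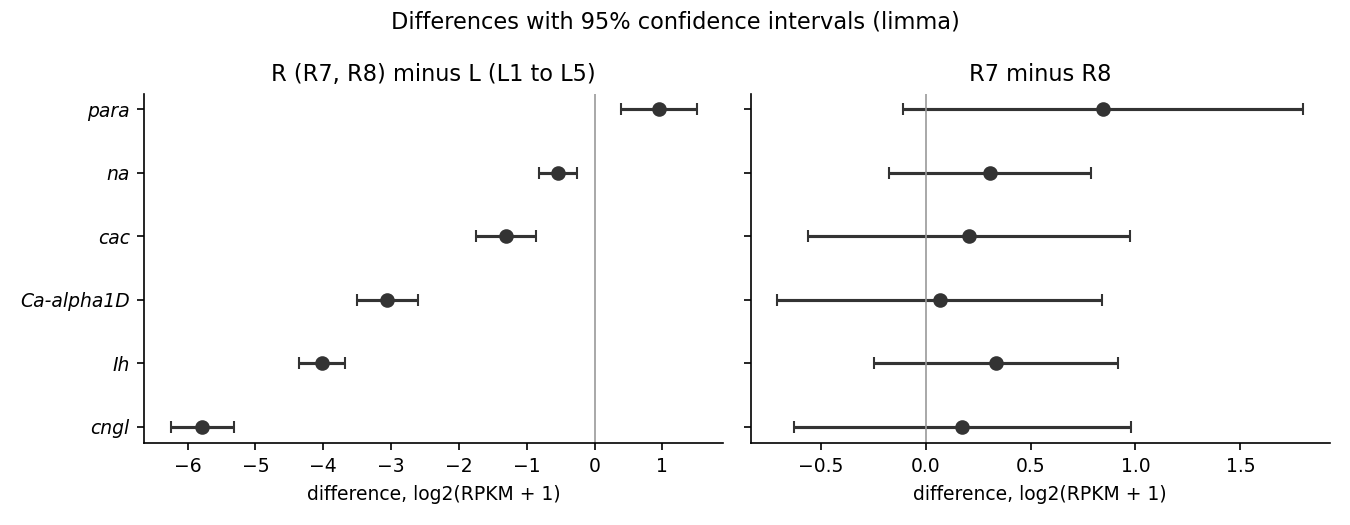
Differences on the log2(RPKM + 1) scale with 95% confidence intervals from limma, R minus L on the left and R7 minus R8 on the right. In the left panel para lies above 0 (0.95) and the other 5 genes lie below it, down to -5.78 for cngl; in the right panel all 6 intervals hold 0.

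None of the 6 genes was called between R7 and R8, where 10.3% of all genes tested were. Each had a higher mean in R7. para came nearest, with 74.4 ± 4.96 RPKM in R7 and 41.0 ± 4.81 RPKM in R8 (SD, n = 2 each). Its difference of R7 minus R8 was 0.85 with a 95% confidence interval from -0.11 to 1.80 and an adjusted p of 0.334. The libraries of R7 lay above both libraries of R8 for para, as they did for na, cac, Ih and cngl but not for Ca-alpha1D. The share of all genes split in this way was not computed, and the 6 genes share their libraries. With the spread taken from the R7 and R8 libraries alone, the adjusted p of para was 0.00331. That fit called 2851 of 7764 genes tested. The spread of para in L4 and L5, which enters the fit over all types, was far wider, with 29.4 ± 19.0 RPKM in L4 and 58.7 ± 26.5 RPKM in L5 (SD, n = 2 each). For the other 5 genes the R7 minus R8 differences ran from 0.07 for Ca-alpha1D to 0.34 for Ih. The interval for Ca-alpha1D reached from -0.71 to 0.84, and differences within it cannot be resolved with these libraries.

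Among the lamina types, Ih and cngl set the 5 types apart, para varied less, and na, cac and Ca-alpha1D did not pass the test. In the F test over L1 to L5, 3 of the 6 genes were called, against 44.6% of all genes tested. The adjusted p was 1.02e-08 for Ih, 1.85e-06 for cngl and 0.0311 for para. It was 0.101 for cac, 0.155 for na and 0.170 for Ca-alpha1D. The call of para was lost without L2 replicate 2 (adjusted p = 0.15), without L5 replicate 1 (adjusted p = 0.112), without L1 replicate 1 (adjusted p = 0.0537) and without L1 replicate 2 (adjusted p = 0.0516), as well as with no filter (adjusted p = 0.063) and with lamina libraries alone (adjusted p = 0.0676). That of cac was gained without L3 libraries 3 and 4 (adjusted p = 0.0165), that of na under quantile normalization (adjusted p = 0.0308), and that of Ca-alpha1D without L4 replicate 2 (adjusted p = 0.0491).

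The levels of Ih fell into a ladder of L5, L1, L2, L4 and L3. Means were 221 ± 21.2 RPKM in L5, 127 ± 6.75 RPKM in L1, 101 ± 31.7 RPKM in L2, 27.8 ± 5.38 RPKM in L4 (SD, n = 2 each) and 6.99 ± 1.83 RPKM in L3 (SD, n = 4). Ih differed in 18 of the 21 pairs of types and in 8 of the 10 lamina pairs, and over the 21 pairs between 8.36% and 52.1% of all genes were called. The 3 pairs that missed the threshold were L5 against L1, L2 against L1 and R7 against R8. L5 against L1 differed by 0.79 with an adjusted p of 0.0536 and libraries that did not overlap, in a comparison where 21.5% of all genes were called. Several alternatives put that pair past the threshold, among them quantile normalization (adjusted p = 0.0347) and leaving out either L4 library (adjusted p = 0.0463 and 0.0465).

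The lower rungs of that ladder were called. L2 against L1 differed by -0.36 with an adjusted p of 0.490, where 8.36% of all genes were called. L4 lay below L2 by a difference of -1.81 (adjusted p = 0.000322), where 26.7% of all genes were called. L4 lay above L3 by 1.87 (adjusted p = 7.31e-05), where 21.2% were called. L3 was therefore the lowest lamina type for Ih, and R7 lay lower still, with a difference of R7 minus L3 of -0.97 (adjusted p = 0.00377) in a comparison where 51.2% of all genes were called.

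The levels of cngl ran in nearly the opposite order, L3, L4, L2, L5 and L1. Means were 375 ± 58.1 RPKM in L3 (SD, n = 4), 259 ± 163 RPKM in L4, 133 ± 40.0 RPKM in L2, 61.5 ± 17.9 RPKM in L5 and 17.2 ± 1.35 RPKM in L1 (SD, n = 2 each). cngl differed in 17 of the 21 pairs and in 7 of the 10 lamina pairs. L4 against L3 missed the threshold, with a difference of -0.68 and an adjusted p of 0.162. The L4 libraries stood at 375 and 144 RPKM, and without the first of them the adjusted p was 0.00587. L4 against L2 also missed it, with a difference of 0.83 and an adjusted p of 0.115, and without the second L4 library the adjusted p was 0.00376.

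At the low end of that order, L5 against L2 differed by -1.10 with an adjusted p of 0.0538, in a comparison where 20.0% of all genes were called. In the same comparison para was higher in L5 by 1.93 (adjusted p = 0.00778), a call lost without L2 replicate 2 (adjusted p = 0.0987) or L5 replicate 1 (adjusted p = 0.103). L5 lay above L1 for cngl by 1.75 (adjusted p = 0.00421), which became 1.45 without L5 replicate 1 (adjusted p = 0.0562). R7 lay below L1 for cngl by a difference of -3.17 (adjusted p = 1.69e-05), where 40.9% of all genes were called.

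The opposing orders made the ratio of Ih to cngl differ by type within each library, where depth and library composition are shared. The ratio was 8.12 and 6.74 in L1, 3.17 and 4.21 in L5, and 0.767 and 0.754 in L2. It was 0.0844 and 0.167 in L4 and between 0.0123 and 0.0262 in the 4 L3 libraries. No library of one lamina type fell in the range of another. In R7 and R8, where both genes were low, the ratio lay between 2.27 and 3.41. Over the 5 lamina type means of log2(RPKM + 1), which share their libraries, the Pearson correlation of Ih with cngl was -0.80, given as a description.

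**Figure D3:**
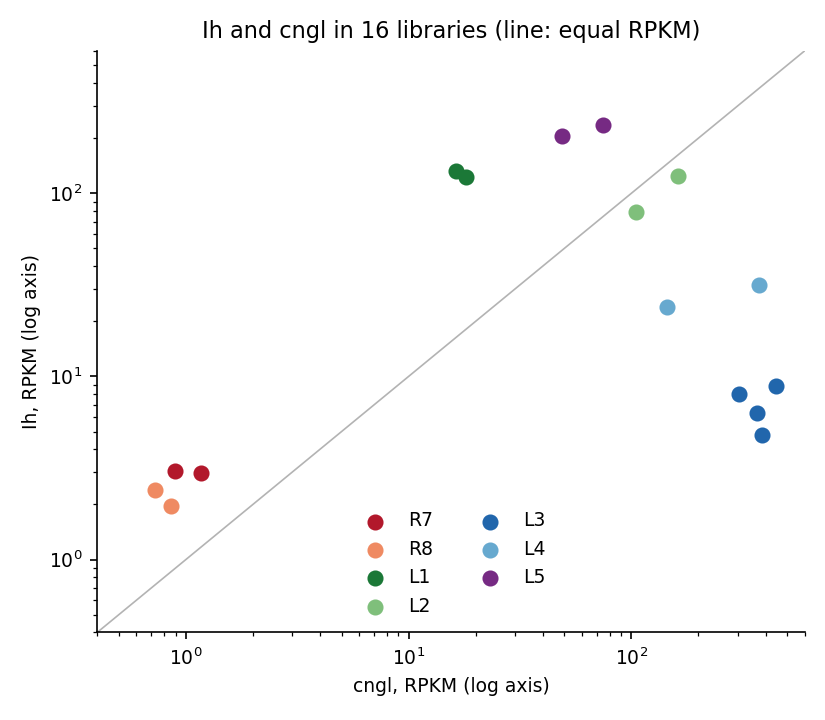
Ih against cngl in RPKM (both axes logarithmic), 1 dot per library and the line marking equal RPKM. L1 and L5 lie above the line, L2 just under it, L4 and L3 far under it, and the 4 R libraries sit at the low end of both axes with ratios of Ih to cngl between 2.27 and 3.41.

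Each lamina type was also set against the mean of the other 4. In L1, Ih rose by 1.44 ± 0.21 (SE, adjusted p = 0.000269) and cngl fell by 3.16 on the log2(RPKM + 1) scale (SE 0.29, adjusted p = 5.11e-06), so 2 of the 6 genes were called where 21.1% of all genes were. In L3 the 2 genes moved the other way: cngl rose by 2.29 ± 0.23 (SE, adjusted p = 7.07e-06) and Ih fell by 3.60 (SE 0.16, adjusted p = 4.09e-09), against 22.5% of all genes called. L3 therefore had the lowest Ih and the highest cngl mean of the lamina.

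In L4, cngl rose by 1.44 ± 0.29 (SE, adjusted p = 0.00296) and Ih fell by 1.26 (SE 0.21, adjusted p = 0.000792), where 23.8% of all genes were called. The cngl call in L4 rested on its first library and was lost without it (adjusted p = 0.0745). In L2, Ih rose by 0.99 ± 0.21 (SE, adjusted p = 0.00486) and para fell by 1.21 (SE 0.34, adjusted p = 0.0249), where 21.6% of all genes were called. With L3 left out the Ih difference in L2 was 0.10 (adjusted p = 0.710), and without L2 replicate 1 its adjusted p was 0.119. The para call in L2 was lost without L2 replicate 2 (adjusted p = 0.383).

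L5 had 3 of the 6 genes called, where 17.5% of all genes were. Ih rose by 2.43 ± 0.21 (SE, adjusted p = 2.28e-06), and this call held under every alternative tried. para rose by 1.21 ± 0.34 (SE, adjusted p = 0.0284), which was lost without L5 replicate 1 (adjusted p = 0.437), L1 replicate 1 (adjusted p = 0.0528) or L2 replicate 2 (adjusted p = 0.0502), with no filter (adjusted p = 0.0545) and with lamina libraries alone (adjusted p = 0.0588). cngl fell by 0.97 (SE 0.29, adjusted p = 0.0346), which was lost under most alternatives that left out an L1, L2 or L5 library, with an adjusted p of up to 0.389 when L3 was left out.

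The order of para over the 7 types was R7, L5, R8, L3, L4, L1 and L2, and no neighbours in it were called. L1 and L2 were the only neighbours whose libraries did not overlap, with a difference of L1 minus L2 of 0.87 and an adjusted p of 0.281. Its 7 called pairs all joined types further apart, 2 of them within the lamina. For na the order was L4, L1, L5, L2, L3, R7 and R8, again with no neighbours called, 4 pairs called in all and none within the lamina. For cac it was L4, L5, L3, L2, L1, R7 and R8, with 8 pairs called and 1 within the lamina. R7 and L1, which meet in that order, did not overlap in cac but missed the threshold, with a difference of R7 minus L1 of -0.66 and an adjusted p of 0.161. For Ca-alpha1D the order was L5, L4, L2, L1, L3, R7 and R8. Its 10 called pairs were those of R7 and R8 with each lamina type, and none lay within the lamina.

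In some types the 6 genes differed between libraries in the same direction. All 6 genes were higher in replicate 1 than in replicate 2 of L2, of L4 and of L5. In R7, R8 and L1 this held for 3, 4 and 2 of the 6. The share of all genes higher in replicate 1 was not computed. The pan-neuronal markers were also higher in replicate 1 at 720 and 578 RPKM in the L2 libraries, 1468 and 910 RPKM in those of L4 and 1111 and 980 RPKM in those of L5. They were higher in replicate 1 of R7 (316 and 301 RPKM) and R8 (289 and 265 RPKM) too, where the 6 genes were mixed. L3 libraries 3 and 4 had more cac (223 and 199 RPKM) than libraries 1 and 2 (107 and 119 RPKM) and less Ca-alpha1D (6.37 and 6.33 RPKM, against 12.2 and 9.55 RPKM). The share of reads on mitochondrial genes was 14.6% and 9.60% in L3 libraries 3 and 4, and 4.17% and 3.96% in libraries 1 and 2. The part of these library differences in the spread of the 6 genes was not tested.

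RPKM is scaled to gene length, so levels are set side by side between genes here. The annotation behind each length is not given in the sources used here, so ratios and ranks between genes are approximate. cac exceeded Ca-alpha1D by a ratio of 102 to 120 in R libraries and of 7.97 to 34.9 in L libraries. cac and para stood at near-equal RPKM in R, with cac over para at 0.814 and 0.825 in R7 and 1.28 and 1.29 in R8, whereas in L the ratio lay between 2.39 and 10.5. para over na lay between 15.8 and 28.1 in R libraries and between 3.08 and 16.5 in L libraries. Among the channels measured here, R types therefore carried para and cac far above the other 4 genes, and each lamina type had a mean of Ih or of cngl above its mean of cac. In L4 this rested on replicate 1, since replicate 2 had 144 RPKM of cngl and 168 RPKM of cac.

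Genes that work with these channels were taken from lists of known partners. In R against L, 8 of 9 sodium channel partners were called, 2 higher and 6 lower, against 61.9% of all genes tested (31.7% higher and 30.2% lower). Their median difference was -1.53, beside -0.02 over all genes tested. The higher genes were Teh3 (0.87, adjusted p = 0.00362) and Teh4 (0.65, adjusted p = 0.0025), and the lower ones included Teh1 (-2.08, adjusted p = 3.25e-07) and tipE (-1.53, adjusted p = 6.9e-06). tipE and the Teh genes encode auxiliary subunits of the Para channel, so 2 of these genes moved with para and 2 against it. Teh2, the most abundant of them with 573 RPKM in R7, 439 RPKM in R8 and 371 to 1354 RPKM in the lamina type means, was not called (-0.34, adjusted p = 0.317).

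The partners of na fell in R as na did. Nlf-1, which helps NALCN-type channels reach the membrane, fell by 3.10 (adjusted p = 4.91e-09). The NALCN complex genes unc80 and unc79 fell by 2.55 (adjusted p = 3.2e-08) and 2.28 (adjusted p = 1.02e-07). These partners were also uneven in the lamina where na was not called: unc79 averaged 91.4 RPKM in L5, 23.4 RPKM in L3 and 1.34 RPKM in L2, and Nlf-1 averaged 71.0 RPKM in L3 and 1.87 RPKM in L2. The F test over L1 to L5 gave an adjusted p of 3.81e-08 for unc79 and 2.84e-08 for Nlf-1. The sodium channel relative NaCP60E fell by 1.21 in R (adjusted p = 1.21e-05), with 10.8 RPKM in L5 and 5.6 RPKM in L1 as its highest means. That fall was lost with R and L as 2 pooled classes (adjusted p = 0.085).

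Of 5 calcium channel genes other than the members, 3 were higher and 1 lower in R, with a median of 0.84, beside the 61.9% of all genes called. Ca-alpha1T, the low-voltage-activated T-type channel, rose by 3.17 (adjusted p = 5.21e-09). It averaged 19.7 ± 0.538 RPKM in R7 and 16.6 ± 0.637 RPKM in R8 (SD, n = 2 each), and its lamina means ran from 0.219 RPKM in L2 to 4.94 RPKM in L5. The T-type gene was thus the second most abundant of the 3 calcium pore genes in photoreceptors and the least abundant in every lamina type, the reverse of Ca-alpha1D. The auxiliary subunit gene Ca-beta rose by 0.84 (adjusted p = 0.000339) and CG16868 by 0.97 (adjusted p = 4.12e-05). stj, an alpha2delta subunit that works with cacophony at synapses, fell by 1.46 (adjusted p = 1.13e-06), and stol, another alpha2delta gene, was not called (-0.23, adjusted p = 0.243).

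Of 3 other cyclic nucleotide channel genes, 2 were lower in R, which is near the 61.9% of all genes called (30.2% lower). CG42260 fell by 3.75 (adjusted p = 5.54e-09) and CngB by 1.99 (adjusted p = 3.81e-07), and the median was -1.99. CngA was not called (-0.22, adjusted p = 0.172) and was at 0.0911 RPKM in R7, 0.0785 RPKM in R8 and 1.60 RPKM in L3, its highest type. CG42260 averaged 1.22 RPKM in R7 and 2.07 RPKM in R8, against 18.3 RPKM in L2 and 58.8 RPKM in L3 at the ends of its lamina range. All 3 differed among L1 to L5 in the F test, where 44.6% of all genes were called. The adjusted p was 0.000239 for CngA, 0.000779 for CngB and 0.0122 for CG42260. CngA passed the filter through its lamina libraries alone and stayed near its level, so its call is not independent of the filter.

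**Figure D4:**
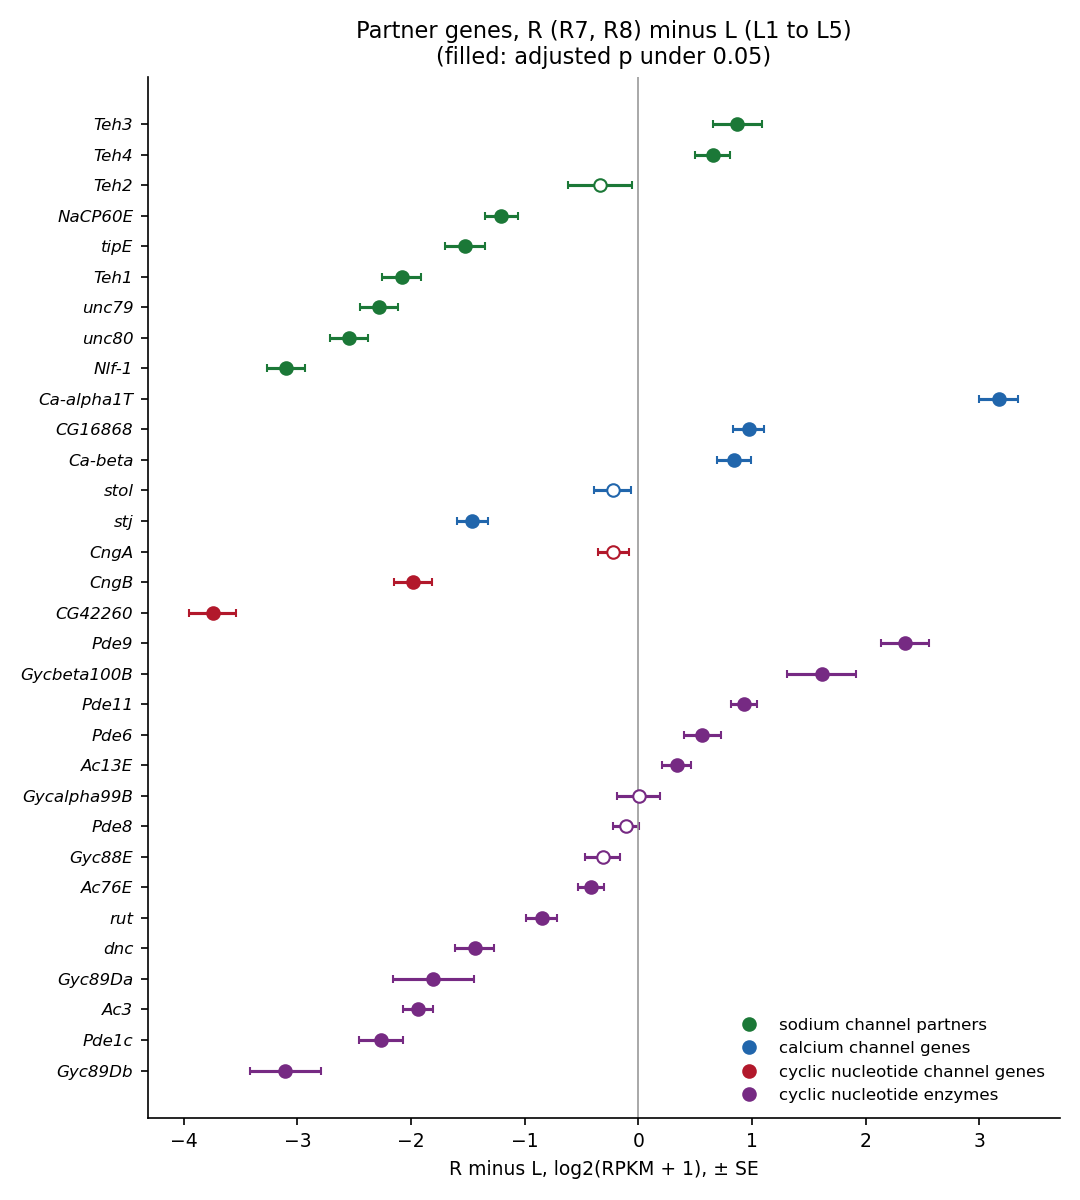
Differences of R minus L on the log2(RPKM + 1) scale with their SE for partner genes that passed the filter, grouped by list; filled dots have an adjusted p under 0.05. Of the sodium channel partners 2 lie above 0 and 6 below among those called, of the calcium channel genes 3 above and 1 below, of the cyclic nucleotide channel genes 2 below, and of the cyclic nucleotide enzymes 5 above and 7 below.

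The enzymes that make and break cyclic nucleotides split in both directions. Of 23 listed, 15 passed the filter, and 5 of these rose and 7 fell in R, with a median of -0.31, against 61.9% of all genes called. The phosphodiesterases Pde9 (2.35, adjusted p = 6.34e-07) and Pde11 (0.93, adjusted p = 1.4e-05) and the soluble guanylyl cyclase subunit gene Gycbeta100B (1.61, adjusted p = 0.000492) rose most. The guanylyl cyclase Gyc89Db (-3.11, adjusted p = 2.2e-06), the phosphodiesterase Pde1c (-2.27, adjusted p = 4.21e-07) and the adenylyl cyclase Ac3 (-1.94, adjusted p = 4.61e-08) fell most. The call of Pde11 was lost with 2 pooled classes (adjusted p = 0.324). Its lamina means were 21.1 RPKM in L1, 31.2 RPKM in L2 and 0.225 to 1.37 RPKM in L3, L4 and L5. Within the lamina, 13 of the 15 genes were called in the F test, against 44.6% of all genes.

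Between R7 and R8, where none of the 6 channels was called, 4 of those 15 enzymes were, against 10.3% of all genes tested. Gycalpha99B, the other subunit gene of soluble guanylyl cyclase, was higher in R7 by 1.71 (adjusted p = 0.00354), at 26.9 ± 0.788 RPKM in R7 and 7.56 ± 1.25 RPKM in R8 (SD, n = 2 each). Pde11 was higher in R7 by 0.82 (adjusted p = 0.0164). Pde8 (-0.96, adjusted p = 0.00658) and Ac13E (-0.86, adjusted p = 0.0233) were lower in R7, and both were at or below 1.29 RPKM in R7 and R8. The call of Gycalpha99B held under each alternative tried. Leaving out any 1 R library ended those of Pde11 (adjusted p 0.094 to 0.127), Pde8 (0.0526 to 0.0753) and Ac13E (0.0791 to 0.217). Pde11 was also lost with 0.1 added in place of 1 (adjusted p = 0.0887), and Ac13E under that setting (adjusted p = 0.056), quantile normalization (adjusted p = 0.108) and equal library medians (adjusted p = 0.0563). The difference between the 2 counts was not tested.

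Pumps and calcium stores also split in R against L. Of 9 pump and store genes, 3 rose and 4 fell, with a median of -0.21, where 31.7% of all genes tested were higher and 30.2% lower. nrv2 (3.12, adjusted p = 2.11e-09), nrv1 (0.95, adjusted p = 0.00217) and the calmodulin gene Cam (0.74, adjusted p = 0.00187) rose, and the ryanodine receptor gene RyR (-1.07, adjusted p = 1.16e-05), nrv3 (-0.71, adjusted p = 0.0167) and Atpalpha (-0.62, adjusted p = 0.0273) fell most. nrv1, nrv2 and nrv3 encode beta subunits of the Na,K-ATPase and Atpalpha its catalytic subunit. The call of Cam was lost under quantile normalization (adjusted p = 0.367), that of nrv3 without R7 replicate 2 (adjusted p = 0.0596) or R8 replicate 1 (adjusted p = 0.0771), and that of Atpalpha without any 1 of the R libraries (adjusted p up to 0.0836) and with no filter (adjusted p = 0.05). nrv1 and the sodium-calcium exchanger gene Calx were lower in R7 than in R8 (-1.42, adjusted p = 0.0282, and -0.93, adjusted p = 0.0103). Leaving out any 1 R library ended the nrv1 call (adjusted p 0.132 to 0.164), as did quantile normalization (adjusted p = 0.055) and no filter (adjusted p = 0.0581). The Calx call was lost under quantile normalization (adjusted p = 0.0919), without either R7 library (adjusted p = 0.0873 and 0.0842) and without R8 replicate 1 (adjusted p = 0.162). Of 4 glial markers tested, moody (-1.33, adjusted p = 0.00267) and wrapper (-1.56, adjusted p = 0.016) were also lower in R7, where 10.3% of all genes were called. The other 2 were not called, among them nrv2 (-0.15, adjusted p = 0.895). The 5 glial markers summed to 18.1 to 21.4 RPKM in R7 and 27.1 to 27.7 RPKM in R8. The wrapper call was lost without either R7 library (adjusted p = 0.106 and 0.101) and without R8 replicate 2 (adjusted p = 0.169). The part of glial RNA in the R7 and R8 differences was not tested.

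Of 5 tested regulators of para RNA, 3 fell in R and none rose, with a median of -0.28. That is near the 61.9% of all genes called. They were the splicing factor ps (-1.06, adjusted p = 2.31e-05), the translational repressor brat (-0.86, adjusted p = 0.00454) and the helicase mle (-0.26, adjusted p = 0.0406), and the call of mle was lost without any 1 R library (adjusted p up to 0.13), without either L1 or L5 library, L2 replicate 1 or L4 replicate 2 (adjusted p up to 0.0731) and with 2 pooled classes (adjusted p = 0.0735). pum, a repressor of para mRNA translation, was not called (-0.28, adjusted p = 0.171). Of 5 active zone genes, Fife (-1.07, adjusted p = 0.000103), unc-13 (-1.03, adjusted p = 2.45e-05) and brp (-0.72, adjusted p = 0.00628) fell with cac, while Rim (0.36, adjusted p = 0.126) and Rbp (0.22, adjusted p = 0.116) were not called. The median was -0.72, and 3 of 5 is again near the 61.9% of all genes called. With 2 pooled classes Fife (adjusted p = 0.151) and brp (adjusted p = 0.0972) were no longer called. Fife averaged 18.6 RPKM in L3 and at most 1.47 RPKM in any other type. brp is also on the pan-neuronal marker list.

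The genes most like each channel over the 7 type means of log2(RPKM + 1) were sought among the 5791 genes that averaged 10 RPKM or more in some type. For para the closest were CG34394, CG31475 and CG32676, with a Pearson correlation of 0.965, 0.939 and 0.930. For na they were Oatp74D (0.979), Atpalpha (0.977) and CG12090 (0.975). For cac they were CG15312 (0.994), CG4887 (0.993) and CG33496 (0.990), and for Ca-alpha1D nAcRbeta-96A (0.998), Prp3 (0.997) and Dip3 (0.994). nAcRbeta-96A, a nicotinic acetylcholine receptor subunit, averaged 2.48 RPKM in R7, 2.04 RPKM in R8 and 93.0 to 207 RPKM in the lamina types.

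For Ih the closest genes were CG3523 (0.976), caz (0.974) and slp1 (0.972). slp1, a transcription factor gene on the lamina marker list, had means of 478 RPKM in L5, 437 RPKM in L1 and 322 RPKM in L2 but 18.4 RPKM in L3 and 19.0 RPKM in L4, the same 3 types in which Ih was highest. For cngl they were CG4101 (0.993), CG13896 (0.987) and CR43791 (0.985). CG4101 averaged 156 RPKM in R7 and 138 RPKM in R8, and in the lamina it kept the order of cngl with 487 RPKM in L3, 388 RPKM in L4, 352 RPKM in L2, 300.5 RPKM in L5 and 258 RPKM in L1. Over 7 points, correlations this high are given as descriptions, and 184 genes passed 0.95 with Ca-alpha1D but 1 gene with para.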

How the data were processed

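The deposited table holds 1 RPKM value per gene and library, made by the authors: reads were aligned with TopHat to BDGP5, per the submitters' processing notes. How reads were counted, on which annotation and with what strand setting is not given in the sources used here. From these RPKM values, log2(RPKM + 1) was modelled in limma 3.58.1 under R 4.3.3, taking all 16 libraries, a mean for each cell type, a mean-variance trend and Benjamini-Hochberg adjustment over the 9346 genes tested (an adjusted p under 0.05 was called). No count model was used, since 78.8% to 81.6% of low values lay within 0.05 of a whole read. The script was tested on simulated data. Values were summarised with pandas 2.3.3.

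The members, gene lists and tests were chosen with earlier results of these data known, so no list is independent evidence of its direction. All 6 members are named, with the 3 most similar genes each, and from each list up to 3 genes called higher and up to 3 called lower in R against L, plus those needed to account for a count. Lamina patterns of partner genes, the R7 and R8 calls and single type means were chosen after their values were seen. Table symbols were matched to current names where given. The annotation at hand is of a later build than the alignment. Its exon coordinates gave the overlap of Ca-alpha1D with another gene. They also gave the gene lengths behind the depths, the shares of whole reads and the mitochondrial read shares. Sequences are not used here. Alternatives covered scaling, filter, pseudocount, variance trend, replicate block, libraries left out and libraries fitted.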

Additional observations from a re-analysis of the deposited data

How the results depend on the processing

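Of 1409 alternative values for single differences of the 6 genes, 1354 kept their side of the threshold. Another 25 lost the call and 30 gained it. None that was called in either setting changed its direction. Differences called in neither could change sign, as that of para in L4 against the other lamina types did (-0.79 to 0.57). In R against L, the 6 genes were called under each alternative except para with 2 pooled classes (0.92, adjusted p = 0.0563). Leaving out 1 library at a time gave para a difference of 0.82 to 1.09 in that comparison and cngl one of -5.92 to -5.64. In R7 against R8, para was called only with the R7 and R8 libraries alone (0.85, adjusted p = 0.00331), where 1 of the 6 genes and 2851 of all genes were called against 966; leaving out 1 library gave 444 to 1143 genes, the lone library of a type being assumed to vary like the others. Leaving out 1 library gave 841 to 2368 genes called in L1 against the other lamina types (1971 with all libraries), 625 to 2556 in L2 (2016) and 743 to 1980 in L5 (1633). It gave 1 to 2 of the 6 genes called in L2, 2 to 4 in L3, 1 to 3 in L4 and 1 to 3 in L5. Lamina libraries alone gave 1 gene of the 6 in L2 and 1 in L5, and no filter on low values gave 1 in L5. Without L3 libraries 3 and 4, 3390 genes were called in L4 and 2593 in L5, against 2225 and 1633.

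Deviations of same-numbered libraries correlated above 0.1 in 9 of 21 pairs of types (-0.06 to 0.32). All 7 types had a mean correlation above 0 with the others. Whether libraries of the same number were handled together was not tested. With a replicate block the genes called were 1542 in R7 against R8, 3202 in L1, 3112 in L2, 3634 in L4 and 2782 in L5. The block left all 6 genes called in R against L, gave para 1.02, took the lamina F test of cac past the threshold (adjusted p = 0.00435) and gave 3 of the 6 genes called in L1 and 3 in L4, against 2 and 2. Replicate numbers 3 and 4 occur only in L3, so the block fits those libraries exactly and they add nothing to its differences. In L4 against the other lamina types, cac rose by 0.79 with the block and by 0.79 without L3 libraries 3 and 4. The part of pairing by replicate number in these shifts was not tested. Whether depth or the number of libraries limits the calls was not tested. The intervals of R7 against R8 for the 6 genes had half-widths of 0.48 to 0.95.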
